A study of Mus musculus with 6 samples.

Results

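The 26 genes described here carry GABA signalling in the cortex or mark the interneurons that release GABA, and all 26 were found by symbol among the 23366 genes of the expression table. They comprise 9 subunits of the GABA-A receptor, both subunits of the GABA-B receptor, 4 genes of GABA synthesis, vesicular loading and uptake, 2 genes of the inhibitory postsynaptic scaffold, 4 markers of interneuron classes, and 5 transcription factors and receptors of interneuron identity. Frontal cortical RNA was sequenced from 3 mice at d10 post microglia depletion (named A4 to A6) and from 3 non-depleted littermate control mice (named A1 to A3), each mouse giving its own library. All mice were on a C57BL/6 background and carried CX3CR1-CreERT2+/-, which drives a tamoxifen-inducible Cre from the promoter of a receptor that microglia and other myeloid cells express. The depleted mice also carried iDTR+/-, which gives the recombined cells the diphtheria toxin receptor. By the paper's methods, mice of both genotypes were matched for age and sex and received tamoxifen. Diphtheria toxin was injected after tamoxifen to deplete microglia. The sources used here give neither the age of these mice nor whether the control mice received the toxin, so an effect of the toxin cannot be told apart from that of the depletion.

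GABA is the main inhibitory transmitter of the cortex. It is made from glutamate in interneurons, loaded into vesicles, released onto ligand-gated chloride channels (GABA-A receptors) and G-protein-coupled receptors (GABA-B receptors), and taken up again by neurons and astrocytes. A GABA-A receptor is a pentamer, most often of alpha, beta and gamma subunits, while receptors with a delta subunit lie outside synapses and carry tonic inhibition. Cortical interneurons are born in the ganglionic eminences under homeobox factors of the Dlx and Lhx families, and adult classes are told apart by calcium-binding proteins and neuropeptides.

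Expression was measured as FPKM, fragments scaled to transcript length and library size, which the authors scaled between libraries with TMM factors, so that levels can be set side by side between genes. Between 5834 (A1) and 7144 (A5) genes were listed at 0. The spacing of low values gave about 11.3 to 20.6 M fragments behind the values of 5 mice, and either 3.55 or 7.18 M behind those of A5. Depleted mouse A4 stood apart: the summed FPKM of 8 interferon-stimulated genes reached 354.2 in A4, against 67.0 (A5), 62.9 (A6) and 20.4 to 31.2 (controls). The sex-linked transcripts also differed, with Xist at 4.74 FPKM in A3 and at 30.9 FPKM or above in the other 5 mice, and with the summed FPKM of Ddx3y, Eif2s3y, Kdm5d and Uty at 5.56 in A4 and at most 0.16 elsewhere. Slc17a7, the vesicular glutamate transporter of cortical excitatory neurons, was between 325.0 and 383.3 FPKM in every mouse. This single gene cannot settle which regions the tissue held, and markers of other regions were also detected (given below).

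None of the 26 GABA and interneuron genes passed the test between depleted and control mice, but this test could miss differences, also large ones. In simulated data, 200 genes were given a log2 shift of 0.3, 0.5 or 1. The fit found 0%, 37.5% and 90.5% of them, respectively. The shifted genes were drawn only from genes with a higher mean FPKM than Gabrg3, Dlx2, Erbb4, Dlx5 and Lhx6. These shares therefore do not cover those genes. The simulated noise was normal and independent between genes, which real libraries need not follow. A gene that was not called here may therefore still differ by such amounts. Larger values were not called either. The 8 interferon-stimulated genes had log2 fold changes of 1.37 to 2.30, and 0 of them were called. Cort (given below), at -1.82, was not called. In bulk tissue, fewer cells of a type and less RNA per cell cannot be told apart. Groups were compared with limma on log2(FPKM + 1) over the 14385 genes averaging 0.5 FPKM or more, which all 26 genes reached, and a difference on this log2 scale understates the change of genes with low FPKM. At adjusted p below 0.1, 0 of the 26 genes were called, where 4 of all genes tested (0.0278%) were. All 4 were higher in depleted mice (0% lower): 2700060E02Rik, BC002163, Gm20878 and Gm21586. At the same threshold the paper reports many more differentially expressed genes, from DESeq on raw counts. The number called thus depends on the test, and few calls here do not mean that few genes changed. At unadjusted p below 0.05, 2 of the 26 genes were lower in depleted mice (7.69%), Gabrg3 and Gabrd, where 5.74% of all genes tested were lower, and 0 were higher, where 4.79% of all genes were. The 3 depleted and the 3 control mice did not overlap in 2 genes, Gabrd and Dlx5, both lower in depleted mice, where 9.38% of all genes tested were lower in this way and 8.21% were higher (17.6% in all). The shares of lower genes lie near those of all genes, while 0 of the 26 were higher by either count. With depleted mouse A5 left out, 6 genes had a lower mean at unadjusted p below 0.05 (Gabrb1, Gabrg3, Gabrd, Slc32a1, Lhx6 and Erbb4), where 7.38% of all genes tested did, and with control mouse A3 left out 0 did, where 3.06% of all genes did.

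The mean was lower in depleted mice in 19 of the 26 genes and higher in 7, with a median log2 fold change of -0.062, while 52% of all genes tested had a lower mean and their median was -0.0085. Without A4 the mean was higher in 14 of the 26 genes and the median was 0.0019. The 95% interval of the log2 fold change lay inside a 1.5-fold difference in either direction (0.585 on the log2 scale) for 21 of the 26 genes (80.8%), against 77% of all genes tested. The 5 genes whose interval reached beyond it were Gabrg3, Gabrd, Dlx1, Dlx2 and Erbb4, of which Gabrg3, Dlx2 and Erbb4 had the lowest mean FPKM of all 26.

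**Figure D1:**
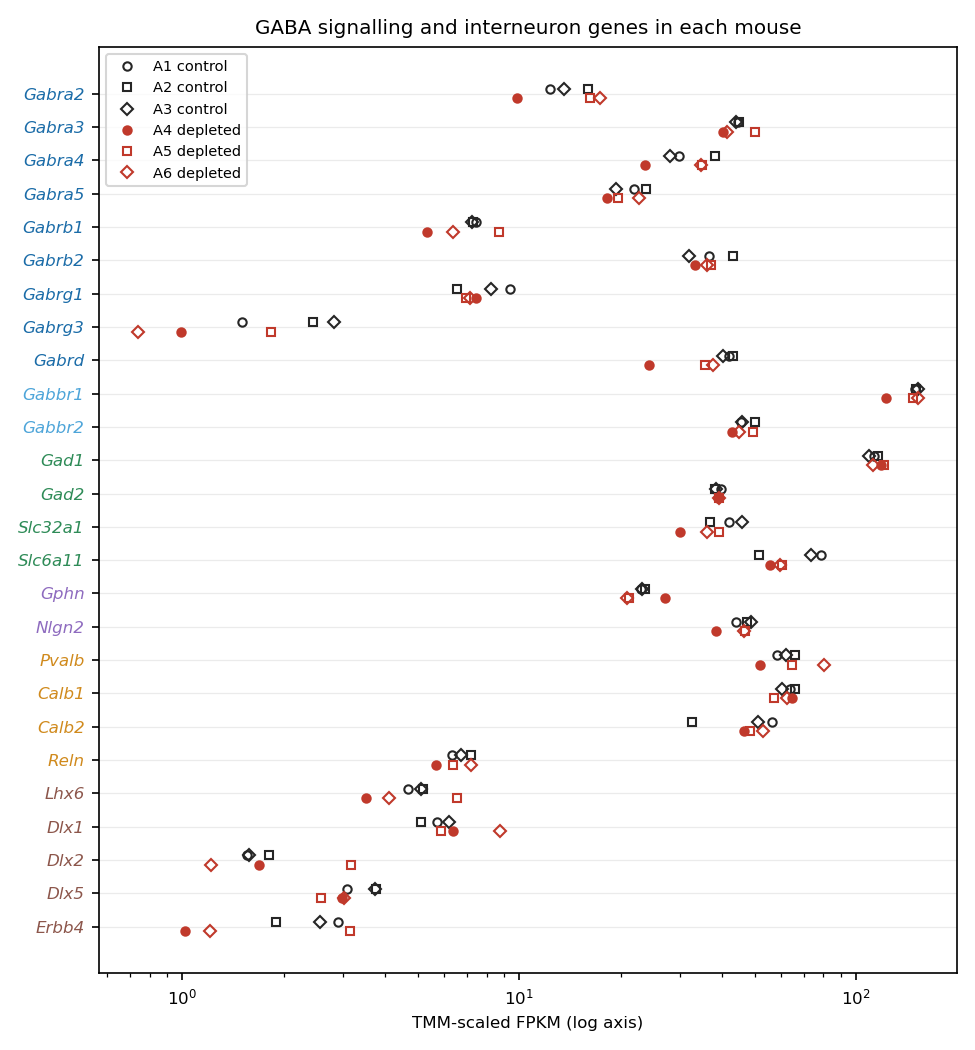
TMM-scaled FPKM (log axis) of the 26 genes in each mouse, with control mice in black above and depleted mice in red below each line, and gene names coloured by role. Levels run from Gabbr1, at 122.4 to 152.6 FPKM, to Gabrg3, at 0.74 to 2.82 FPKM, and in most genes the points of both groups overlap, while the filled circle of A4 is often the leftmost.

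**Figure D2:**
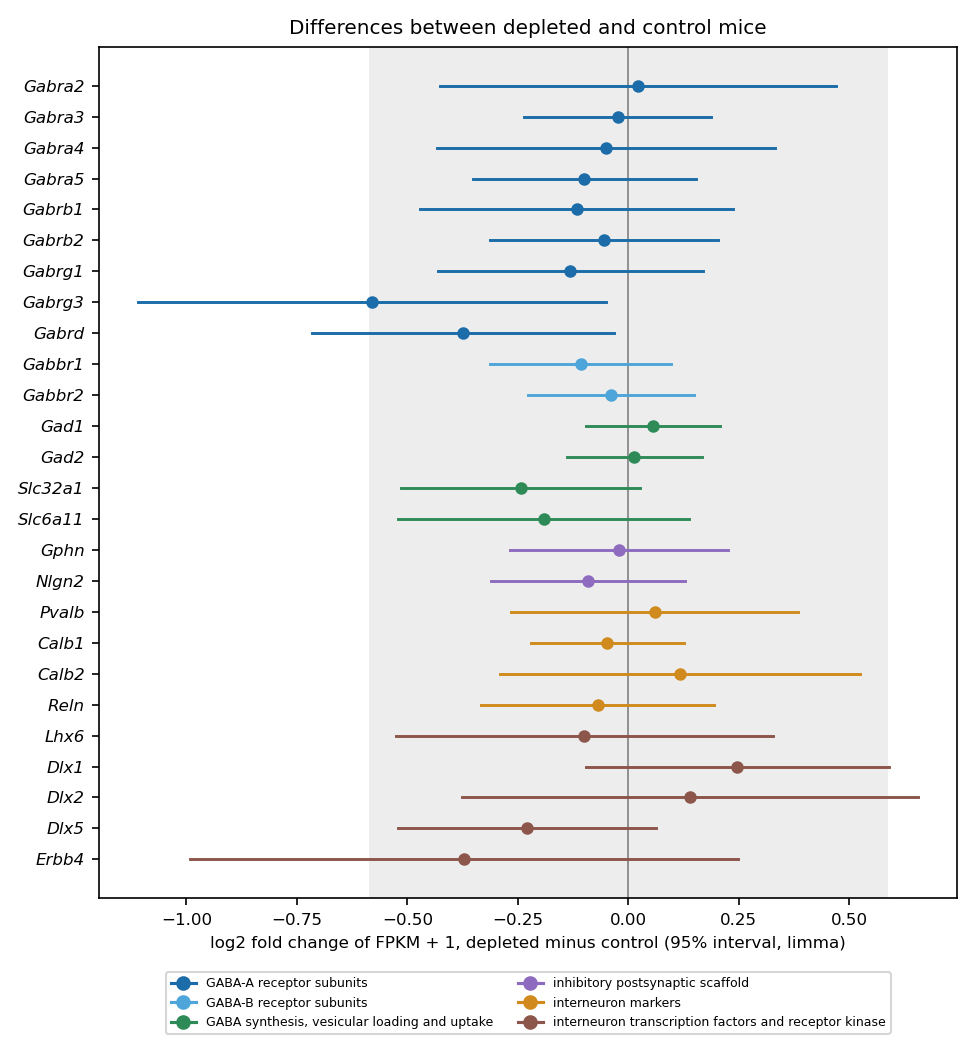
Log2 fold change of FPKM + 1 (depleted minus control) with its 95% interval from limma, for 3 mice against 3, coloured by role, with a gray band for differences under 1.5-fold. The intervals of Gabrg3 and Gabrd lie below 0 without adjustment, and those of 21 of the 26 genes lie inside the band.

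Among GABA-A receptor subunits, the delta and gamma-3 subunits had the lowest ratios and the other 7 had log2 fold changes between -0.13 and 0.022. Gabrd, the delta subunit of extrasynaptic receptors, was at 41.9, 43.01 and 40.2 FPKM in control A1 to A3 and at 24.3, 35.5 and 37.7 FPKM in depleted A4 to A6. Every depleted mouse was below every control mouse, A4 by the widest margin. The means were 41.7 ± 1.41 and 32.5 ± 7.18 FPKM (SD, n = 3 each), and the log2 fold change was -0.37 (SE 0.15, 95% interval -0.72 to -0.033, limma adjusted p = 0.451). Without A4 the log2 fold change was -0.18, and the groups still did not overlap. The difference missed the threshold with and without this mouse.

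Gabrg3, a gamma subunit with restricted expression, had the lowest level of the 26 genes. Its FPKM was 1.5, 2.44 and 2.82 in the control mice and 0.99, 1.84 and 0.74 in depleted A4 to A6. A4 and A6 were below every control mouse, while A5 lay between A1 and A2, so that the groups overlapped. The log2 fold change was -0.58 (SE 0.23, 95% interval -1.11 to -0.051, limma adjusted p = 0.451), and it was -0.78 without A5 and -0.43 without A6. The highest of the 6 values was 3.81 times the lowest, the widest range of the 26 genes.

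Gabra3, the alpha subunit with the highest level among the 26 genes, was at 44.7, 44.9 and 43.9 FPKM in control mice, a range of only 1.02 times, and at 40.3, 50.02 and 41.4 FPKM in depleted A4 to A6. A4 and A6 were below all control mice and A5 above them all, and the means were 44.5 ± 0.540 and 43.9 ± 5.30 FPKM (SD, n = 3 each), with a log2 fold change of -0.024 (95% interval -0.24 to 0.19, limma adjusted p = 0.948). Gabrb2, a beta subunit common at cortical synapses, was at 36.7, 43.1 and 31.8 FPKM in control and 33.3, 37.2 and 36.2 FPKM in depleted mice, and all 3 depleted values fell within the range of the control mice. Its log2 fold change was -0.055 (95% interval -0.31 to 0.20, limma adjusted p = 0.890).

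The alpha subunits Gabra2 and Gabra4 shared a pattern across the mice. Gabra2 was at 12.3, 16.03 and 13.5 FPKM in controls, and depleted mice were at 9.88, 16.2 and 17.4 FPKM (A4 to A6), and Gabra4, a partner of the delta subunit in extrasynaptic receptors, at 29.8, 38.1 and 28.1 FPKM and 23.7, 34.9 and 34.5 FPKM. In both, A4 was the lowest of the 6 mice, while A5 and A6 were at or above the middle of the control values. Their log2 fold changes were 0.022 and -0.05, or 0.26 and 0.13 without A4, so that the direction of Gabra4 turned with this single mouse. Gabra5, the alpha subunit of tonic receptors best known from the hippocampus, had means of 21.7 ± 2.21 and 20.2 ± 2.28 FPKM (SD, n = 3 each) and a log2 fold change of -0.10 (95% interval -0.35 to 0.15).

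The 2 remaining subunits, which astrocytes express as well as neurons, were lower in level. Gabrb1 was between 7.25 and 7.45 FPKM in the control mice and at 5.34, 8.7 and 6.38 FPKM in depleted A4 to A6, a log2 fold change of -0.12 that was -0.28 without A5 and 0.022 without A4. Gabrg1 ran the other way, with a wide control range of 6.53 to 9.37 FPKM and depleted mice close together, at 7.46, 6.96 and 7.16 FPKM, and its log2 fold change was -0.13 (95% interval -0.43 to 0.17), or -0.26 without A2 and -0.026 without A1. The groups overlapped in both genes with all mice, and did not overlap in Gabrg1 without A2.

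GABA-A subunit genes lie in clusters, and neighbours in a cluster did not share 1 value. In the RefSeq annotation of GRCm38, Gabrg1, Gabra2, Gabra4 and Gabrb1 are neighbours in this order on chromosome 5, and their log2 fold changes were -0.13, 0.022, -0.050 and -0.12. On chromosome 7, Gabrg3 (-0.58) lies beside Gabra5 (-0.10). Differences between neighbours were not tested.

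Both GABA-B receptor subunits stayed within a narrow range except in A4. Gabbr1, which binds GABA, had the highest level of the 26 genes, at 149.6, 150.7 and 152.6 FPKM in the control mice and 122.4, 147.3 and 152.4 FPKM in depleted A4 to A6. A6 lay within the control values, A5 just below them and A4 well below. The means were 151.0 ± 1.52 and 140.7 ± 16.1 FPKM (SD, n = 3 each), a log2 fold change of -0.11 (SE 0.0895, limma adjusted p = 0.691) that came to -0.011 without A4. Gabbr2, the subunit that couples the receptor to G proteins, was at 45.4, 50.03 and 45.8 FPKM in control and 42.9, 49.5 and 44.9 FPKM in depleted mice. Its groups overlapped, with A4 again the lowest, and the log2 fold change was -0.04 (95% interval -0.23 to 0.15, limma adjusted p = 0.889). Of all 26 genes, Gabbr2, Gad1, Gad2 and Calb1 differed least among the 6 mice, the highest value being at most 1.17 times the lowest.

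The RNA levels of the GABA-synthesising enzymes overlapped between depleted and control mice, with the narrowest intervals of the 26 genes. Gad1, the glutamate decarboxylase that makes most of the GABA pool in the cell body, was at 113.4, 116.1 and 108.9 FPKM in control A1 to A3 and at 118.6, 121.4 and 111.98 FPKM in depleted A4 to A6. The groups overlapped, and here A4 and A5 were the 2 highest mice. The log2 fold change was 0.056 (SE 0.0666, 95% interval -0.10 to 0.21, limma adjusted p = 0.792), so that a difference of more than 0.21 on the log2 scale lay outside the interval in either direction.

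Gad2, the decarboxylase of axon terminals, was the steadiest of the 26 genes, at 39.8, 38.1 and 38.4 FPKM in control and 39.02, 39.1 and 39.3 FPKM in depleted mice. All 6 values lay within a ratio of 1.04, and the log2 fold change was 0.014 (95% interval -0.14 to 0.17, limma adjusted p = 0.959). The ratio of Gad1 to Gad2 FPKM was 2.91 ± 0.119 in control mice against 3.0 ± 0.132 after depletion (SD, n = 3 each), with overlap.

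The 2 transporters had lower means in depleted mice, but neither passed the test. Slc32a1, the vesicular GABA transporter, was at 41.9, 36.95 and 45.8 FPKM in control and 29.9, 39.2 and 35.98 FPKM in depleted mice. A4 and A6 were below every control mouse and A5 was above A2. The means were 41.6 ± 4.44 and 35.0 ± 4.71 FPKM (SD, n = 3 each), a log2 fold change of -0.24 (SE 0.12, 95% interval -0.51 to 0.027, limma adjusted p = 0.513) that came to -0.14 without A4 and to -0.098 after the correction for GC content, which was chosen after seeing the data. In the reference transcripts, 23% of the 75-base windows of Slc32a1 occur in Gm14205 on either strand, so that reads of this part may have been split between the genes.

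Slc6a11, a GABA transporter of astrocytes, was at 78.4, 51.6 and 73.6 FPKM in control A1 to A3 and at 55.6, 60.2 and 59.5 FPKM in depleted A4 to A6. Control mouse A2 was the lowest of all 6 mice, and the depleted mice lay close together between A2 and the other controls. The log2 fold change of -0.19 (SE 0.14, limma adjusted p = 0.660) was -0.37 without A2 and -0.077 without A1. The spread between control mice was thus wider than the difference between the groups.

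The scaffold genes of inhibitory synapses showed no common direction in A4. Gphn, which encodes gephyrin and anchors GABA-A and glycine receptors, was at 22.9, 23.6 and 23.1 FPKM in control and 27.1, 21.2 and 20.8 FPKM in depleted mice. A4 was the highest of the 6 mice, and A5 and A6 were the lowest. The log2 fold change was -0.021 (95% interval -0.27 to 0.23, limma adjusted p = 0.961), or -0.14 without A4.

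Nlgn2, the neuroligin of inhibitory synapses, was at 43.9, 47.5 and 48.7 FPKM and 38.3, 46.9 and 46.6 FPKM. A4 was the lowest mouse, and A5 and A6 were within the control range. Its log2 fold change was -0.092 (95% interval -0.31 to 0.13, limma adjusted p = 0.756), or 0.0013 without A4.

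Markers of interneuron classes had a median log2 fold change of 0.0063, and their groups overlapped in all 4 genes. Pvalb, the calcium-binding protein of fast-spiking basket and chandelier cells, was at 58.2, 65.8 and 61.9 FPKM in controls, and depleted mice were at 52.01, 64.5 and 80.3 FPKM (A4 to A6). The depleted mice held both the lowest value (A4) and the highest (A6), with A5 among the controls. The means were 62.0 ± 3.81 and 65.6 ± 14.2 FPKM (SD, n = 3 each), a log2 fold change of 0.06 (SE 0.14, 95% interval -0.26 to 0.39, limma adjusted p = 0.906) that ran from -0.095 without A6 to 0.21 without A4.

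Calb1, calbindin, which also marks some upper-layer pyramidal cells, was at 63.6, 66.1 and 60.4 FPKM in control and 64.4, 57.2 and 62.2 FPKM in depleted mice. These values overlapped closely, with a log2 fold change of -0.048 (95% interval -0.22 to 0.13, limma adjusted p = 0.853). For Calb2, calretinin of bipolar interneurons, the values were 56.1, 32.7 and 50.99 FPKM and 46.6, 48.6 and 52.96 FPKM. Control mouse A2 stood apart at the bottom, as it did for Slc6a11, and the log2 fold change of 0.12 became -0.12 without A2. Reln, the secreted protein of layer I and other interneurons, had means of 6.75 ± 0.441 and 6.41 ± 0.757 FPKM (SD, n = 3 each) and a log2 fold change of -0.069 (95% interval -0.33 to 0.19).

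The genes of interneuron identity had the lowest summed FPKM of all roles, between 15.6 and 21.3 in the 6 mice. Dlx5, a homeobox factor of the forebrain GABA lineage, was at 3.08, 3.77 and 3.73 FPKM in control and 2.97, 2.58 and 3.02 FPKM in depleted mice. Every depleted mouse was below every control mouse, although A1 and A6 differed by only 0.06 FPKM. The means were 3.53 ± 0.387 and 2.86 ± 0.241 FPKM (SD, n = 3 each), a log2 fold change of -0.23 (SE 0.13, 95% interval -0.52 to 0.063, limma adjusted p = 0.561). With quantile normalization and after a correction for GC content the groups overlapped.

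Its relative Dlx1, which is needed for the survival of dendrite-targeting interneurons, was at 5.71, 5.12 and 6.2 FPKM and 6.37, 5.88 and 8.75 FPKM. A6 was the highest of all mice and A5 lay among the controls. Dlx1 had the highest log2 fold change of the 26 genes, 0.25 (SE 0.15, 95% interval -0.10 to 0.59, limma adjusted p = 0.591), and it was 0.10 without A6. The reference transcripts of Dlx1 share 4.68% of their 75-base windows with the antisense gene Dlx1as, whose reads cannot be told apart if strand was not used in counting.

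Lhx6, the factor of parvalbumin and somatostatin interneurons, was at 4.68, 5.19 and 5.11 FPKM in control and 3.52, 6.56 and 4.11 FPKM in depleted mice. A4 and A6 lay below the controls and A5 above them, and the log2 fold change was -0.10 (95% interval -0.53 to 0.33), or -0.32 without A5. Erbb4, the neuregulin receptor of interneurons, was at 2.89, 1.9 and 2.56 FPKM and 1.02, 3.15 and 1.21 FPKM. It showed the same order as Lhx6 among the depleted mice, with A5 the highest of all 6 and A4 and A6 the lowest, and its log2 fold change of -0.37 (SE 0.27, limma adjusted p = 0.651) was -0.70 without A5 and -0.18 without A4. Dlx2 was between 1.22 and 1.81 FPKM in 5 mice and at 3.16 FPKM in A5, with a log2 fold change of 0.14 that was -0.12 without A5. A5, whose values rested on the fewest fragments by the estimate above, was thus the highest mouse for Lhx6, Dlx2 and Erbb4. The part of depth in these values was not tested.

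**Figure D3:**
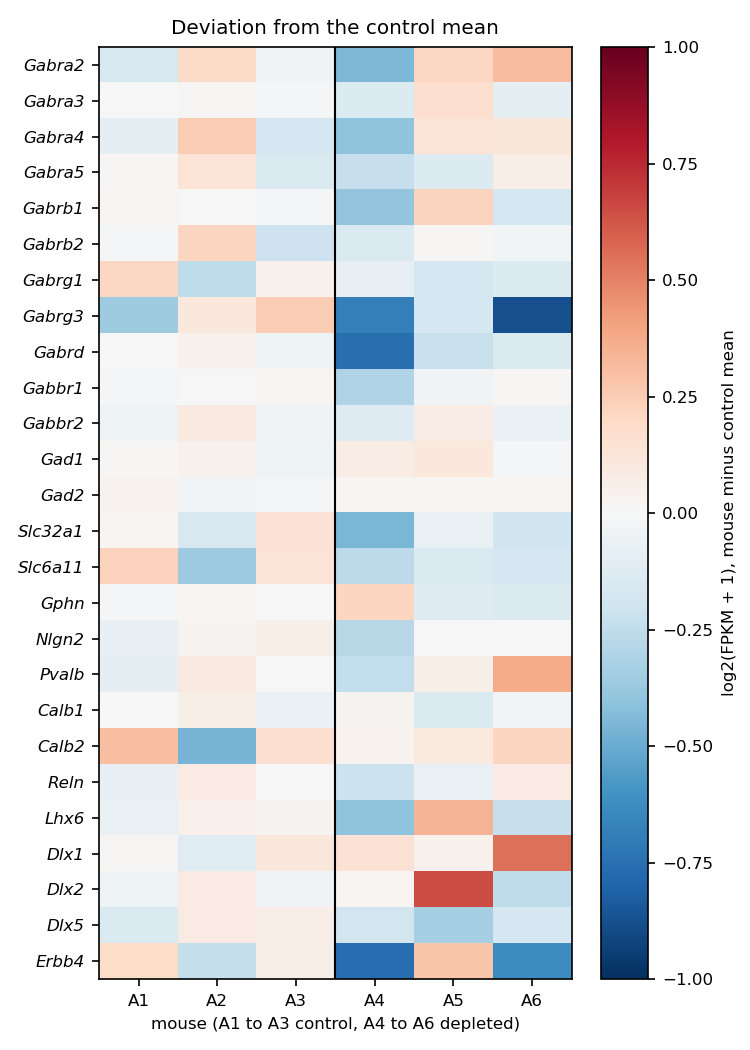
Log2(FPKM + 1) of each of the 26 genes in each mouse minus the mean of the 3 control mice, in blue for lower and red for higher values on a scale from -1 to 1. The A4 column is mostly blue, most in Gabrd, Erbb4 and Gabrg3, while A5 and A6 hold both colours and the Gad1 and Gad2 rows are nearly white in all mice.

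The clearest feature of the 26 genes was the position of A4 within the depleted group. A4 had the lowest FPKM of the 6 mice in 14 of the 26 genes (53.8%), where it had the lowest value in 28.2% of all genes tested (ties counted to the mouse listed first). It had the highest value in 1 of the 26 genes, Gphn, where it had the highest value in 26.9% of all genes tested. By role, A4 was lowest in 6 of 9 GABA-A receptor subunits, in both GABA-B receptor subunits, in 1 of the 4 genes of synthesis and transport and in 4 of the 9 interneuron genes. The median of the 26 genes on the log2 scale, relative to the control mean, came to -0.22 for A4, 0.012 for A5 and -0.047 for A6, while the median of all genes tested was between -0.0097 and -0.00098 in these mice. After the correction for GC content, A4 was lowest in 13 of the 26 genes (50%), against 27.6% of all genes.

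**Figure D4:**
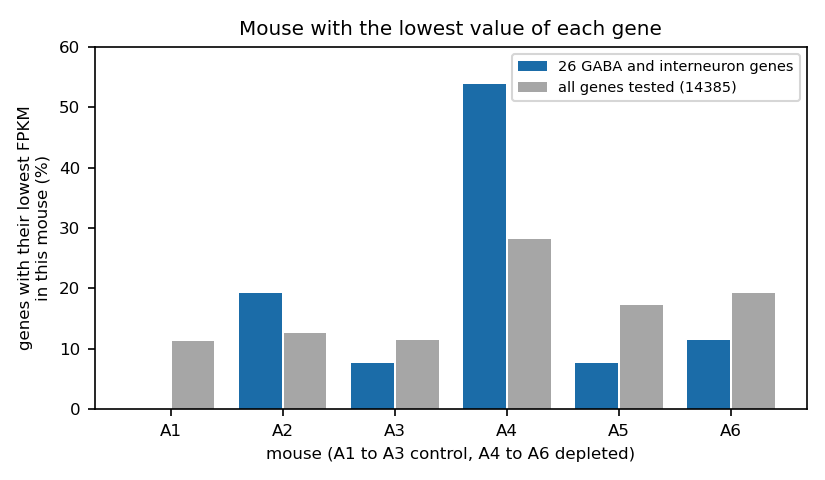
Share of genes (%) whose lowest FPKM of the 6 mice was found in each mouse, for the 26 GABA and interneuron genes (blue) and all 14385 genes tested (gray). A4 holds 53.8% of the former and 28.2% of the latter, and A1 holds 0% and 11.3%.

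Markers of other cell types and regions also stood apart in A4. A4 was lowest in 8 of 12 markers of excitatory neurons, 4 of 10 pan-neuronal markers, 5 of 8 astrocyte markers and 6 of 8 markers of oligodendrocytes and their precursors, and in 1 of 8 microglia markers and 0 of 8 interferon-stimulated genes. It was also lowest in 8 of 11 striatal markers, a region whose projection neurons are GABAergic and express Gad1 and Gad2. The summed FPKM of the striatal markers was 384.0 in A4 and 411.8 to 478.9 in the other mice. The striatal genes did not share 1 order: Drd2 had 4.88, 12.8 and 11.1 FPKM in depleted A4 to A6 and 10.1, 10.3 and 14.2 FPKM in the controls, while Ppp1r1b had 159.1, 146.1 and 130.9 FPKM and 120.4, 145.9 and 132.8 FPKM, with A4 the highest mouse. Pdyn was also higher in A4 than in every control mouse, and Drd1a was at 9.11 FPKM in A4 and 9.29 FPKM in A1. Of the markers of other regions, 6 choroid plexus genes summed to 46.5 to 71.4 FPKM in depleted and 168.2 to 324.8 FPKM in control mice. Most of this sum was Ttr, at 40.9 to 64.3 FPKM in depleted and 160.05 to 313.7 FPKM in control mice. The 7 cerebellar granule cell genes summed to 24.5 to 25.8 and 28.2 to 41.7 FPKM. All genes of both lists had lower means in depleted mice, but the groups did not overlap in only 1 gene of each, Ttr and Cbln3. Of all genes tested, 9.38% were lower without overlap. The sums of the 6 thalamic genes (39.6 to 43.2 and 41.2 to 54.0 FPKM) and of the 6 olfactory bulb genes (15.03 to 18.5 and 15.3 to 21.6 FPKM) overlapped between the groups. The 8 oligodendrocyte genes summed to between 2408 and 2478 FPKM against 2744 to 2988 FPKM, while the 8 microglia genes summed to 99.7 to 128.7 FPKM against 95.5 to 115.8 FPKM. The summed FPKM of the 26 genes was 821.7 in A4 and 929.4 to 943.2 in the other mice. Gfap, the intermediate filament of reactive astrocytes, was at 300.3 FPKM in A4 and between 64.5 and 120.1 FPKM in the others. The part of these differences in the values of the 26 genes was not tested.

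The other genes of the pathway gave 0 genes at adjusted p below 0.1 in limma. Their lists, like the 26 genes, were chosen with earlier results of these data known. Of the 10 other GABA-A and GABA-rho receptor subunits, 6 reached the filter, 5 with a lower mean in depleted mice. Gabra6, which marks cerebellar granule cells, was at 1.99 FPKM in A1 and at most 0.50 FPKM in the other mice, and Gabrr2 had the highest log2 fold change of the list, 0.50, with A4 at 3.09 FPKM and the others at 0.65 to 1.12.

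Among 10 genes of GABA uptake, breakdown and precursor supply, 8 had a lower mean in depleted mice, with a median log2 fold change of -0.11. Slc38a3, a glutamine transporter of astrocytes, had the lowest log2 fold change of the list at -0.41 (limma adjusted p = 0.468, below 0.05 before adjustment), and Slc38a2 the highest at 0.17. The chloride transporters that set the driving force of GABA-A receptors, Slc12a5 and Slc12a2, had log2 fold changes of -0.14 and -0.13, with overlapping groups.

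Kctd16, an auxiliary subunit that shapes the kinetics of GABA-B receptors, was at 5.94, 7.1 and 7.7 FPKM in control A1 to A3 and at 3.85, 4.5 and 5.58 FPKM in depleted A4 to A6. Every depleted mouse was below every control mouse, and the log2 fold change was -0.49 (SE 0.15, limma adjusted p = 0.378, below 0.05 before adjustment), while the other 3 auxiliary subunits were between -0.20 (Kctd8) and 0.14 (Kctd12b). Of 19 other proteins of inhibitory synapses, 13 had a lower and 6 a higher mean, from Mdga1 at -0.33 to Gabarap, a receptor-trafficking protein, at 0.15, and 0 had unadjusted p below 0.05. The groups did not overlap in Gabarap and Nsf, both higher in depleted mice. Of all genes tested, 8.21% were higher without overlap, and 10.5% had an unadjusted p below 0.05 in limma.

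Among 32 other interneuron genes tested, 24 had a lower mean in depleted mice, with a median log2 fold change of -0.10, and at unadjusted p below 0.05 the lower genes were Sst, Cort, Lamp5, Sox6 and Ndnf and the higher ones Htr3a and Nkx2-1, 5 and 2 of 32, where 5.74% of all genes tested were lower and 4.79% higher. Sst, the peptide of dendrite-targeting Martinotti cells, was at 289.7, 251.7 and 270.9 FPKM in control and 183.8, 243.2 and 241.1 FPKM in depleted mice. The groups did not overlap, and A4 was the lowest, with a log2 fold change of -0.29 (SE 0.12, limma adjusted p = 0.448, below 0.05 before adjustment). Cort, a peptide of a subset of these cells, had the lowest log2 fold change of the list, -1.82 (SE 0.33, limma adjusted p = 0.283), at 7.41, 10.8 and 8.59 FPKM in the control mice and 0.58, 3.36 and 2.13 FPKM in depleted A4 to A6. Vip and Npy, peptides of other classes, were at 25.3 ± 0.990 and 98.8 ± 12.4 FPKM in control and at 28.5 ± 3.80 and 104.5 ± 1.75 FPKM in depleted mice (SD, n = 3 each), with log2 fold changes of 0.16 and 0.088. Nkx2-1, a factor of the medial ganglionic eminence that adult hypothalamus and striatum express, had the highest at 0.88 (limma adjusted p = 0.378, below 0.05 before adjustment), from 0.97, 0.83 and 1.82 FPKM to 3.42, 1.7 and 4.26 FPKM, with A5 below control mouse A3.

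**Figure D5:**
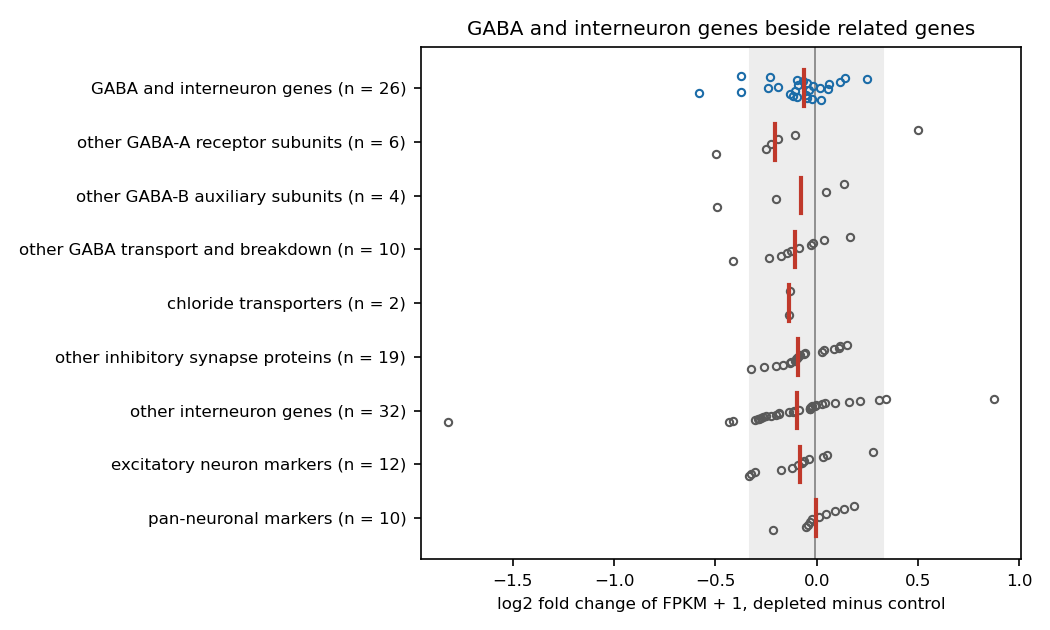
Log2 fold change of FPKM + 1 (depleted minus control) of each gene tested (circles, spread vertically for legibility), with the median of each list as a red bar, the 5th to 95th percentile of all genes tested (-0.33 to 0.33) as a gray band and their median as a gray line. Most circles lie inside the band, and Cort and Nkx2-1 lie farthest out.

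Pan-neuronal markers, such as Rbfox3 and Snap25, had 5 of 10 genes higher and a median of -0.0059 on the log2 scale, and those of excitatory neurons had 3 of 12 higher and a median of -0.082. The GABA and interneuron genes, at -0.062, lay between these lists, and no difference between lists was tested.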

How the data were processed

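Poly(A)-selected cortical RNA of 3 control and 3 depleted mice was sequenced with 75 bp paired-end reads. The authors aligned reads with TopHat, quantified known transcripts with RSEM and deposited FPKM values scaled with TMM factors, rounded to 2 decimals, 1 column per mouse. The submitters' processing notes name mm9, TopHat, RSEM and DESeq, and tool versions are not given in the sources used here. Raw counts were not used here. Groups came from sample titles, and nothing in the labels names a batch.

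Values were taken to log2(FPKM + 1), a mean of 0.5 FPKM or more was required, and groups were compared with limma 3.58.1 (trended eBayes) in R 4.3.3, with Benjamini-Hochberg adjustment over all 14385 genes and a threshold of 0.1. Alternatives were pseudocounts of 0.1 and 0.5, no filter, a minimum mean of 1 FPKM, TPM, median-of-ratios and quantile scaling, array weights, robust eBayes and eBayes without trend, a threshold of 0.05, each mouse left out, and a GC-content correction chosen after seeing the data (99.2% of genes tested had a value).

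The 26 genes and the related lists were chosen with earlier results of these data known. Every one of the 26 is named, with values of all mice for those at an unadjusted p below 0.05 or without overlap, for the 2 most abundant of each role, and for others whose mice stood apart. From related lists, the lowest and highest log2 fold change, a fixed set (among them Slc12a5, Slc12a2, Sst, Vip and Npy) and GABA genes under an unadjusted 0.05 are named, except for some genes that are not reported here. Genes behind counts of 5 or fewer and the marker genes of other cells were named after their values were seen. Shared sequence came from 75-base windows of GENCODE M21 transcripts (GRCm38), and gene order from RefSeq GRCm38. The fit was tested on simulated data. Fragments per library were estimated from the spacing of low FPKM values of genes with a single transcript. This estimate was not checked on simulated libraries with the same length setting. Python 3.11.15, numpy 2.4.6, pandas 2.3.3 and matplotlib 3.10.9 were used.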

Additional observations from a re-analysis of the deposited data

How the results depend on the processing

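In every alternative 0 of the 26 genes passed the threshold in limma. Of 468 values of single genes, 441 kept their direction and 27 turned. Settings that changed only the filter, the variance model or the threshold leave a fold change as it was, so their values could not turn. A lower mean at an unadjusted p-value under 0.05 was found in 1 gene, against 2, in 3 settings. These were eBayes without trend (5.47% of all genes tested), array weights (6.19%) and GC correction (4.03%). With 1 mouse left out it was found in 0 (without A3, 3.06% of all genes) to 6 (without A5, 7.38%) genes. Genes without overlap between groups numbered 1 lower with quantile normalization, where 9.31% of all genes tested were lower in this way. After GC correction 1 was lower and 1 higher, where 7.62% and 8.52% of all genes were. With 1 mouse left out, 2 (without A3, 13% of all genes) to 9 (without A5, 16.7%) were lower. In the same settings 0 to 1 were higher, where 11% to 16% of all genes were. The mean was higher in 11 of the 26 genes with array weights, in which A4 had the lowest weight (0.304), and in 6 (without A1) to 14 (without A4) with 1 mouse left out. The median log2 fold change of the 26 genes ran from -0.11 to 0.0019 with 1 mouse left out. Of all genes tested, 4 passed the threshold, 20 with array weights, 2 without trend, and 2 (without A1) to 29 (without A5) with 1 mouse left out. Those at an unadjusted p-value under 0.05 numbered 689 higher and 826 lower, or 709 and 579 after GC correction, and 360 to 997 and 429 to 1064 with 1 mouse left out.

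Directions turned with array weights in Gabra3 (0.018), Gabra4 (0.065), Gabbr2 (0.00060) and Lhx6 (0.021), and after GC correction in Gabbr2 (0.019), Gad2 (-0.019) and Nlgn2 (0.038). With 1 mouse left out they turned in 14 genes, whose log2 fold changes ran from -0.12 to 0.26 (Gabra2), -0.12 to 0.033 (Gabra3), -0.14 to 0.13 (Gabra4), -0.28 to 0.022 (Gabrb1), -0.16 to 0.054 (Gabrb2), -0.096 to 0.0040 (Gabbr2), -0.14 to 0.043 (Gphn), -0.14 to 0.0013 (Nlgn2), -0.095 to 0.21 (Pvalb), -0.084 to 7.4e-05 (Calb1), -0.12 to 0.27 (Calb2), -0.14 to 0.0025 (Reln), -0.32 to 0.054 (Lhx6) and -0.12 to 0.34 (Dlx2). After GC correction Slc32a1 was at -0.098, Gad1 at 0.027 and Lhx6 at -0.038. With 1 mouse left out, other genes kept their direction but moved by over 1.5 times, among them from -0.26 to -0.026 in Gabrg1, -0.37 to -0.077 in Slc6a11, -0.18 to -0.033 in Gabra5, -0.17 to -0.011 in Gabbr1 and -0.70 to -0.18 in Erbb4. The cause was not tested. No paired analysis was possible because the labels give the groups no shared replicate numbers. With 3 mice per group, the 95% interval reached beyond 1.5-fold for 5 of the 26 genes.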
